A study of Mus musculus with 18 samples.

Results

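The genes described here are the 9 that carry vitamin A through uptake, storage and conversion to retinoic acid, taken by name from the table of read counts: Rbp4, Stra6, Lrat, Rdh10, Dhrs3, Aldh1a1, Aldh1a2, Aldh1a3 and Crabp2, of 54232 genes in the table. They were measured by bulk RNA-seq of whole lacrimal glands (LGs), the glands that secrete the watery part of tears, from 18 untreated male mice. The control strain was BALB/cJ (BALB/c below) and the disease strain NOD.B10Sn-H2b/J (NOD.H-2b below), a mouse model of Sjögren's syndrome in which immune cells enter the tear and salivary glands. Mice of each strain were 2, 4 or 6 months old (2M, 4M and 6M), with 3 mice in each of the 6 groups. The strains are separate inbred lines that differ at many loci, so no difference between them can be assigned to a single gene, and in whole-gland RNA fewer cells of a type and less RNA per cell cannot be told apart. The labels do not say whether mice of a group shared a litter or a cage. RNA was depleted of ribosomal RNA before sequencing in read pairs, and the unit of every value below is the count of reads per gene or a quantity computed from it.

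Vitamin A circulates as retinol bound to retinol-binding protein, which Rbp4 encodes. Stra6 is the membrane receptor that takes retinol from this carrier into cells, and Lrat esterifies retinol for storage. Rdh10 oxidizes retinol to retinal, Dhrs3 reduces retinal back to retinol, and the retinal dehydrogenases Aldh1a1, Aldh1a2 and Aldh1a3 make retinoic acid from retinal in a step that is not reversed. Crabp2 brings retinoic acid to its nuclear receptors, which act on genes as ligand-activated transcription factors. Vitamin A is needed by the epithelium of tear glands and the ocular surface, and retinoic acid also acts on lymphocytes and macrophages.

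In NOD.H-2b LGs, transcripts of the retinol receptor Stra6 and of the dehydrogenase Aldh1a2 were higher than in BALB/c, and those of the storage enzyme Lrat, of Aldh1a3 and of Rdh10 were lower. Aldh1a2, Lrat, Aldh1a3 and Rdh10 differed this way at all 3 ages, and Stra6 at 4M and 6M, the ages at which it passed the filter on low counts. Stra6 passed that filter only because of its counts in the NOD.H-2b mice. Dhrs3 changed sides with age, being higher in the disease strain at 2M and lower in it at 6M. Rbp4 and Crabp2 were at the edge of detection in every group.

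All 9 genes were matched by identifier and name to GENCODE M21 on GRCm38, and all are protein coding. Rdh10 lies on chromosome 1 (16105774 to 16133734, plus strand), Lrat on chromosome 3 (82892579 to 82903973, minus strand) and Crabp2 on the same chromosome (87948666 to 87953376, plus strand). Dhrs3 is on chromosome 4 (144892827 to 144928209, plus strand) and Aldh1a3 on chromosome 7 (66390890 to 66427517, minus strand). Chromosome 9 holds Stra6 (58063788 to 58153996, plus strand) and Aldh1a2 (71215789 to 71296243, plus strand). Chromosome 19 holds Aldh1a1 (20492715 to 20643465, plus strand) and Rbp4 (38116629 to 38125281, minus strand). Stra6, Lrat, Aldh1a1 and Aldh1a2 overlap other annotated genes, but no exon of the 9 genes overlaps an exon of another gene. Aldh1a1 has a close paralog, Aldh1a7, and how reads that match both were counted is not given in the sources used here, so its values carry that uncertainty.

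The members moved in opposite directions, so the 250 bases before the transcription start are shown for the 3 with the largest strain differences at 4M, together with the only window among those found for the tested members that held a core motif of retinoic acid receptors. RefSeq windows were found for 6 of the 9 genes, not for Aldh1a3, Rdh10 and Crabp2. The sequences are from RefSeq on GRCm38.p6, read 5′ to 3′ on the gene's own strand. By the positions given, the windows of Aldh1a2 and Lrat lie outside the span of their gene. Those of Stra6 and Aldh1a1 lie within it, and their overlap with exons was not tested. The windows are chr9:71215539-71215788 (plus strand) for Aldh1a2, chr3:82903975-82904224 (minus strand) for Lrat, chr9:58128838-58129087 (plus strand) for the first of 4 starts of Stra6 and chr19:20601718-20601967 (plus strand) for the second of 2 starts of Aldh1a1. Which of the starts of Stra6 and Aldh1a1 is used in the LG cannot be read from counts per gene. Capitals mark the core motif.
Aldh1a2: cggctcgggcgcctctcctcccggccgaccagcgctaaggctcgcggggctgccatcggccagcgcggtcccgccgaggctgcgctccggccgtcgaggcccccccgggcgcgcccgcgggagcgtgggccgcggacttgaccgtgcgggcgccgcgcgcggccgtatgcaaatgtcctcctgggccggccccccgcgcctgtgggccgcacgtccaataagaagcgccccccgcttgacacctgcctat
Lrat: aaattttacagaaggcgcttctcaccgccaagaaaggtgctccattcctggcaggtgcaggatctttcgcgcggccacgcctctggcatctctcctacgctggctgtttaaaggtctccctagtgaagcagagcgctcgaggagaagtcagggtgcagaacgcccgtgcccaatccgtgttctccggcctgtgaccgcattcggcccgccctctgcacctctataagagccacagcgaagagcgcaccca
Stra6: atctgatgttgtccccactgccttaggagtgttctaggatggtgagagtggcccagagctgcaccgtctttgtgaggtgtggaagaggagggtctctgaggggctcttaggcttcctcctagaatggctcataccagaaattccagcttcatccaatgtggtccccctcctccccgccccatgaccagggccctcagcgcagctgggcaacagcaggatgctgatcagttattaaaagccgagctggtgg
Aldh1a1: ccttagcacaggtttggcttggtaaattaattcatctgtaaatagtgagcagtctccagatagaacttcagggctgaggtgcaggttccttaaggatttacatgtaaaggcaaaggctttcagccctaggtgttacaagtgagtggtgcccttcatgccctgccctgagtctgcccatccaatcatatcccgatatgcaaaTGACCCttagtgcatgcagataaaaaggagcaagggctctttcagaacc

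The motif searched was the hexamer AGGTCA with its variants spelled GGGTCA, then also spelled AGTTCA and lastly spelled GGTTCA, on either strand. It was found in none of the printed windows of Aldh1a2, Lrat and Stra6. The window of Aldh1a1 holds it once, on the opposite strand. Of 32851 promoter windows of the same length in RefSeq, 38.6% held it. Direct repeats of the hexamer with 1, 2 or 5 bases between, the arrangements that receptor pairs are known to bind, were in none of the 4 windows and in 0.164%, 0.174% and 0.0883% of all windows. The windows differed in base composition. The Aldh1a2 window had a GC content of 77.6% and 40 CpG dinucleotides, and the Lrat window 59.2% and 18. The Stra6 window had 56.4% and 4, against medians of 52.4% and 6 over all windows.

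The LGs held between 49480781 and 103936830 counts per mouse (BALB/c 6M replicate 1 had the most), so 1 count was worth 0.0107 to 0.0229 CPM (counts divided by the library size and brought to the usual CPM scale, with TMM normalization). Pairs of replicates differed by more than counting error (chi-square per gene 16.4 to 83.4), so no mouse was counted as a duplicate and the precision of a group is set by its 3 mice. Of the marker lists, acinar genes of the tear gland were high in every mouse, with a summed level of 46950 to 86250 CPM for the 4 of 5 listed genes in the table. Most of this sum was Scgb2b7, with group means of 51310 to 75270 CPM. Immune lists differed between the strains. B cell markers (4 of 4 genes found) summed to 0.0351 to 1.68 CPM over the BALB/c mice. In NOD.H-2b they summed to 0.726 to 15.9 CPM at 2M, 74.2 to 167 at 4M and 122 to 234 at 6M.

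To compare levels between genes, CPM was divided by the length of all exons of the gene in kilobases (CPM per kb). On this scale Dhrs3 was the most abundant of the 9, with a mean of 19.5 over the 18 mice, and its range (14.2 to 23.3) did not overlap that of any other member. Rdh10 followed with a mean level of 3.52 CPM per kb and a range of 2.55 to 4.76, also apart from the rest. The retinal dehydrogenases came next, with mean levels of 1.13 CPM per kb for Aldh1a2, 0.804 for Aldh1a1 and 0.410 for Aldh1a3. Their ranges overlapped, since Aldh1a2 spanned 0.420 to 2.40 and Aldh1a1 0.564 to 1.09 CPM per kb. In CPM not divided by length, Aldh1a1 had the higher mean, 3.97 against 2.55 for Aldh1a2. Lrat had a mean level of 0.276 CPM per kb. The lowest were Stra6 at 0.0526, Rbp4 at 0.0501 and Crabp2 at 0.0332 CPM per kb, and neighbours among these could not be ordered within their ranges.

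**Figure D1:**
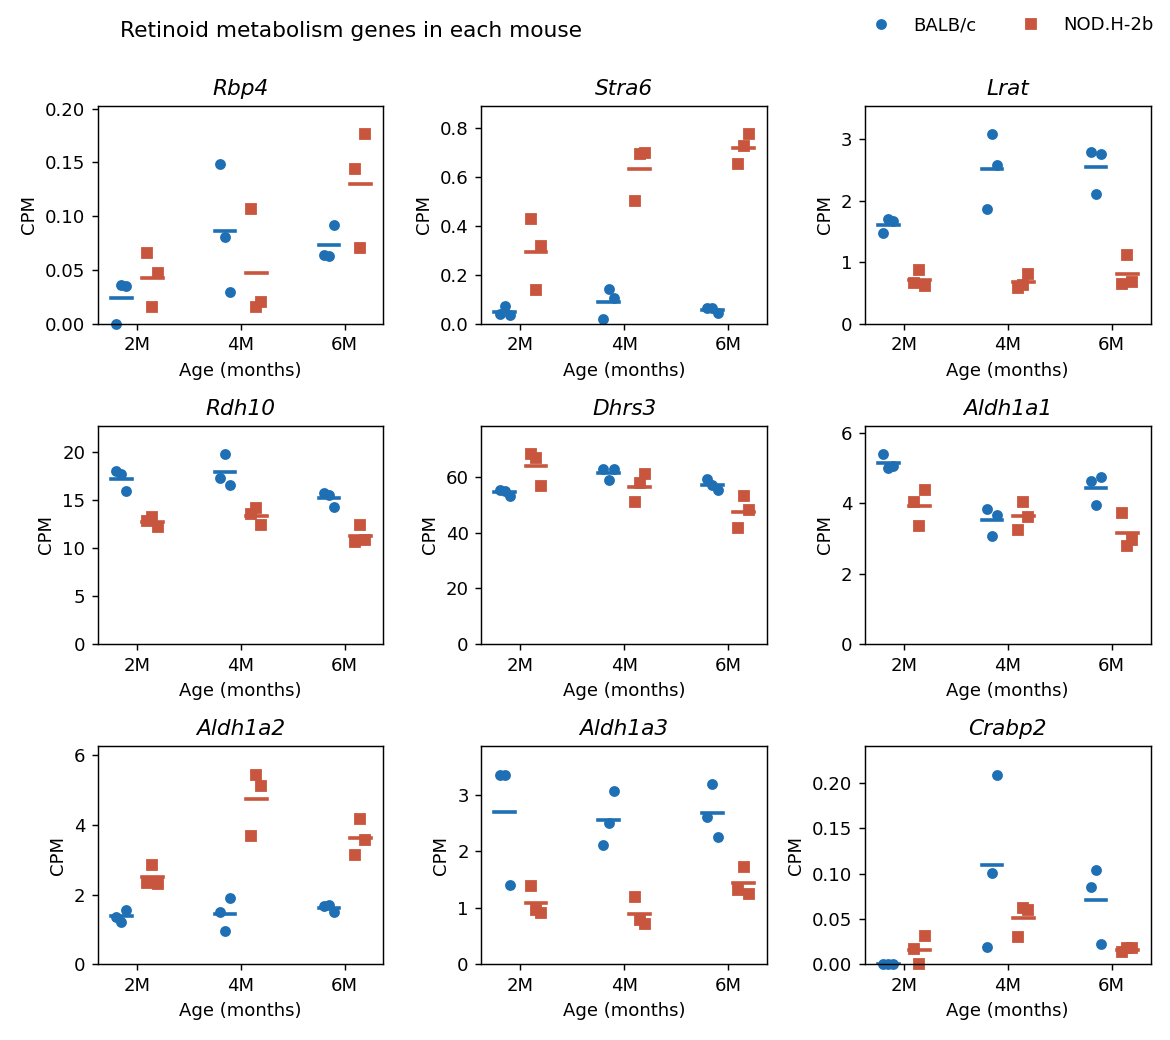
CPM (TMM-normalized scaled counts) of the 9 retinoid genes at 2M, 4M and 6M. Each point is a mouse (circles BALB/c, squares NOD.H-2b), each bar is the mean of 3 mice, and every axis starts at 0 with its own scale. Stra6 and Aldh1a2 of NOD.H-2b lie above all BALB/c mice of the same age, and Lrat and Rdh10 lie below them.

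The first question was how the strains differed at each age, with edgeR's quasi-likelihood test over all genes with enough counts and Benjamini-Hochberg adjustment (FDR). A gene was called at an FDR under 0.05. At 2M, 6 of the 9 members could be tested and all 6 were called, 2 upward and 4 downward in the disease strain. Over all 17200 genes tested at this age, 22.5% were called higher and 17.2% lower. At 4M, 7 members were tested, of which 2 were called higher, 3 lower and 2 not, against 23.4% higher and 19.2% lower of 17722 genes. At 6M, 2 of 7 were called higher and 5 lower, against 28.6% and 25.8% of 17750 genes. The seventh gene at 4M and 6M was Stra6, which had enough counts for the test only because of the NOD.H-2b mice. The tested members had a median log2 fold change of -0.39, -0.11 and -0.43 at 2M, 4M and 6M. All genes tested had a median of 0.0099, 0.00034 and -0.0041.

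Stra6, the receptor for retinol bound to its carrier, had the largest strain difference among the tested members at 4M and 6M. At 2M the BALB/c mice had 2, 4 and 2 counts and the NOD.H-2b mice 26, 9 and 20. At 4M the counts were 1, 7 and 7 in BALB/c and 33, 45 and 35 in NOD.H-2b, and at 6M 6, 3 and 2 in BALB/c and 50, 41 and 44 in NOD.H-2b. At each age every NOD.H-2b mouse was above every BALB/c mouse of that age. Across ages the strains overlapped, since NOD.H-2b 2M replicate 2 had 0.139 CPM and BALB/c 4M replicate 2 had 0.142 CPM. In CPM the group means were 0.0482 ± 0.0202 against 0.295 ± 0.147 at 2M, 0.0884 ± 0.0632 against 0.632 ± 0.113 at 4M and 0.0576 ± 0.0102 against 0.719 ± 0.0618 at 6M (BALB/c against NOD.H-2b, mean ± SD, n = 3).

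The log2 fold change of Stra6 was 2.82 (SE 0.53, FDR = 0.00195 in edgeR's quasi-likelihood test) at 4M and 3.57 (SE 0.39, FDR = 4.11e-05) at 6M. At 2M it was left out by the filter on low counts. With no filter, which adds genes with hardly any counts, it was 2.56 at 2M (SE 0.69, edgeR FDR = 0.00147). The ratio of the summed counts, corrected for library size, was 6.03 at 2M (95% exact interval 2.86 to 14.7), 7.09 at 4M (4.12 to 13.1) and 12.0 at 6M (6.48 to 24.5). These intervals cover counting error only, and they overlap between the ages.

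Rbp4, the carrier itself, is made mainly by liver and fat. It had 0 to 8 counts in the BALB/c mice and 1 to 11 in the NOD.H-2b mice, too few for the test at any age. The ratio of summed counts, NOD.H-2b over BALB/c, was 1.75 at 2M (95% exact interval 0.470 to 7.96), 0.605 at 4M (0.231 to 1.5) and 1.87 at 6M (0.923 to 3.99). No strain difference of Rbp4 was detectable at this depth.

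Lrat, which turns retinol into the ester that cells store, was lower in NOD.H-2b at each age. At 2M its level was 1.47, 1.70 and 1.66 CPM in the BALB/c mice and 0.660, 0.877 and 0.617 CPM in the NOD.H-2b mice. At 4M it was 1.86, 3.08 and 2.57 CPM in BALB/c against 0.577, 0.632 and 0.801 CPM in NOD.H-2b, and at 6M 2.79, 2.11 and 2.75 CPM against 0.653, 1.12 and 0.670 CPM. The strains did not overlap at any age, and the highest NOD.H-2b mouse of all ages was below the lowest BALB/c mouse. The log2 fold change was -1.14 (SE 0.24, edgeR FDR = 0.0028) at 2M, -1.90 (SE 0.27, FDR = 0.000382) at 4M and -1.65 (SE 0.26, FDR = 0.000457) at 6M. This made Lrat 2.20-fold, 3.73-fold and 3.14-fold lower in NOD.H-2b.

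Rdh10, the main enzyme for the oxidation of retinol to retinal, showed a small strain difference of nearly the same size at each age. At 2M its level ranged over 16.0 to 18.0 CPM in the BALB/c mice and over 12.2 to 13.3 CPM in the NOD.H-2b mice. At 4M the ranges were 16.6 to 19.8 and 12.5 to 14.2 CPM, and at 6M 14.3 to 15.8 and 10.6 to 12.4 CPM. The mice of the strains did not overlap at any age. In log2 fold change this was -0.41 (SE 0.07, edgeR FDR = 0.00121) at 2M, -0.41 (SE 0.10, FDR = 0.00856) at 4M and -0.43 (SE 0.10, FDR = 0.00468) at 6M.

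Dhrs3, which works against Rdh10 by reducing retinal, changed sides. At 2M its level was 55.4, 55.0 and 53.2 CPM in the BALB/c mice and 68.2, 67.0 and 56.8 CPM in the NOD.H-2b mice. At 4M it was 62.8, 59.0 and 62.8 CPM in BALB/c and 51.1, 57.8 and 61.0 CPM in the NOD.H-2b mice. At 6M it was 59.4, 57.2 and 55.4 CPM in BALB/c and 41.6, 53.3 and 48.1 CPM in NOD.H-2b. The NOD.H-2b mice were all above BALB/c at 2M, overlapped with BALB/c at 4M and were all below at 6M. The log2 fold change was 0.26 (SE 0.07, edgeR FDR = 0.00859) at 2M, -0.11 (SE 0.08, FDR = 0.29) at 4M and -0.26 (SE 0.09, FDR = 0.0358) at 6M. The call at 6M was lost when BALB/c 6M replicate 1 or 2 or NOD.H-2b 6M replicate 1 or 3 was left out (edgeR FDR 0.0822 to 0.107) or when at least 10 counts were required in every mouse (FDR = 0.0711), and the call at 2M was lost in 1 fit of all 18 mice (FDR = 0.0516).

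**Figure D2:**
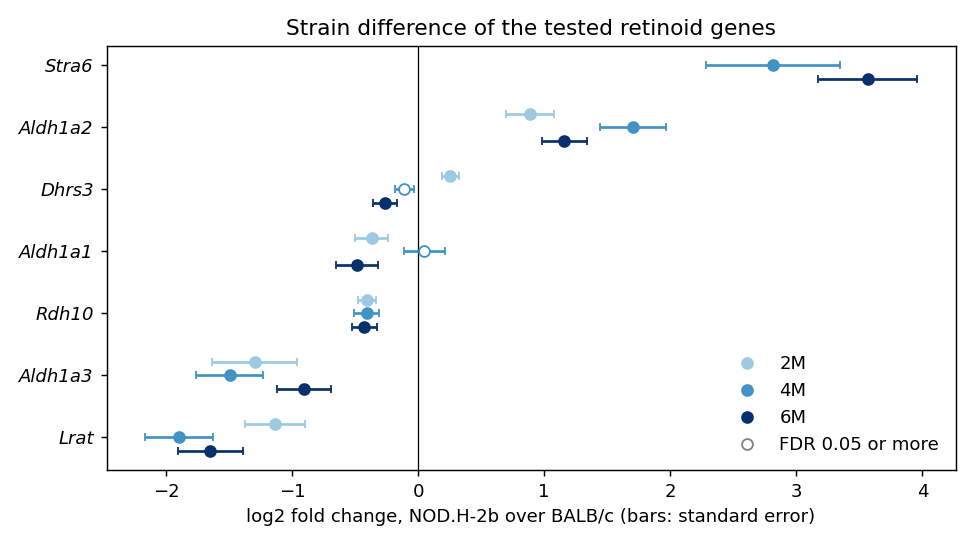
Strain difference (log2 fold change of NOD.H-2b over BALB/c, with its standard error) of the 7 members that could be tested, at 2M, 4M and 6M, from edgeR's quasi-likelihood fit of the 6 mice of each age. Filled points have an FDR under 0.05, and Stra6 has no point at 2M. Stra6 and Aldh1a2 lie to the right of 0, and Rdh10, Aldh1a3 and Lrat to the left, at each age shown.

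Among the retinal dehydrogenases, the strains differed in opposite directions. Aldh1a2 was higher in NOD.H-2b. At 2M its level was 1.35, 1.21 and 1.54 CPM in the BALB/c mice and 2.34, 2.83 and 2.29 CPM in the NOD.H-2b mice. At 4M it was 1.51, 0.951 and 1.90 CPM in BALB/c against 3.68, 5.44 and 5.10 CPM in NOD.H-2b, and at 6M 1.66, 1.71 and 1.49 CPM against 3.13, 4.17 and 3.56 CPM. The lowest NOD.H-2b mouse of all ages was above the highest BALB/c mouse. As a log2 fold change the difference was 0.89 (SE 0.19, edgeR FDR = 0.00315) at 2M, 1.70 (SE 0.26, FDR = 0.000595) at 4M and 1.16 (SE 0.18, FDR = 0.000387) at 6M, or 1.85-fold, 3.26-fold and 2.24-fold.

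Aldh1a3 was lower in NOD.H-2b. At 2M its level was 3.35, 3.36 and 1.40 CPM in the BALB/c mice and 1.39, 0.954 and 0.901 CPM in the NOD.H-2b mice. At 4M it was 2.10, 2.51 and 3.07 CPM in BALB/c against 1.19, 0.786 and 0.721 CPM in NOD.H-2b, and at 6M 2.62, 3.19 and 2.25 CPM against 1.32, 1.72 and 1.25 CPM. The strains did not overlap, but at 2M BALB/c replicate 3 was close to the highest NOD.H-2b mouse. The log2 fold change was -1.30 (SE 0.34, edgeR FDR = 0.0133) at 2M, -1.50 (SE 0.26, FDR = 0.00135) at 4M and -0.90 (SE 0.22, FDR = 0.00545) at 6M. At 2M the call was lost without BALB/c 2M replicate 1 or 2 or NOD.H-2b 2M replicate 2 or 3 (edgeR FDR 0.0517 to 0.0583).

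Aldh1a1 differed less. At 2M the BALB/c mice had 5.39, 5.00 and 5.05 CPM and the NOD.H-2b mice 4.03, 3.36 and 4.38 CPM. At 4M these levels were 3.84, 3.08 and 3.67 CPM against 3.24, 4.04 and 3.60 CPM, and at 6M 4.64, 3.94 and 4.74 CPM against 3.74, 2.78 and 2.94 CPM. The mice of the strains overlapped at 4M and did not at 2M and 6M. The log2 fold change was -0.37 (SE 0.13, edgeR FDR = 0.0444) at 2M, 0.05 (SE 0.16, FDR = 0.836) at 4M and -0.48 (SE 0.16, FDR = 0.0303) at 6M. The call at 2M was lost when any of 5 of the 6 mice was left out, all but NOD.H-2b 2M replicate 3 (edgeR FDR 0.0588 to 0.128), and when at least 10 counts were required in every mouse (FDR = 0.0528). The call at 6M was lost without BALB/c 6M replicate 1 or 3 or NOD.H-2b 6M replicate 2 or 3 (edgeR FDR 0.0669 to 0.103). For the paralog Aldh1a7, given outside the naming rule for the reads it could share, the log2 fold change was 0.16, -0.18 and 0.31 at the 3 ages, with an edgeR FDR of 0.718, 0.833 and 0.483.

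The opposite directions meant that the make-up of the 3 dehydrogenase transcripts differed between the strains. In CPM per kb, Aldh1a2 made up 27.4% ± 5.7 of the sum in the BALB/c mice and 51.7% ± 5.9 in the NOD.H-2b mice at 2M, 33.0% ± 5.7 and 68.9% ± 4.2 at 4M, and 32.6% ± 1.2 and 62.6% ± 4.9 at 6M (SD, n = 3). The highest BALB/c mouse had 37.4% and the lowest NOD.H-2b mouse 48.1%. Aldh1a3 made up 15.1% to 34.3% of the sum in the BALB/c mice and 4.97% to 14.0% in the NOD.H-2b mice. Aldh1a1 had the largest share in all 3 BALB/c groups by their means (46.9%, 37.8% and 41.1%), and Aldh1a2 in all 3 NOD.H-2b groups. The order in NOD.H-2b at 2M depended on the division by the length of all annotated exons. Without it, the mean there was 3.92 CPM for Aldh1a1 and 2.49 for Aldh1a2. In NOD.H-2b at 4M these means were 3.625 and 4.74 CPM, and at 6M 3.155 and 3.621 CPM. The sum of the 3 genes was 2.23 ± 0.21 and 2.13 ± 0.03 CPM per kb at 2M, 1.91 ± 0.33 and 3.02 ± 0.44 at 4M, and 2.20 ± 0.08 and 2.55 ± 0.20 at 6M (BALB/c and NOD.H-2b, SD, n = 3). The shares rest on the same counts as the tests above and were given no test of their own.

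**Figure D3:**
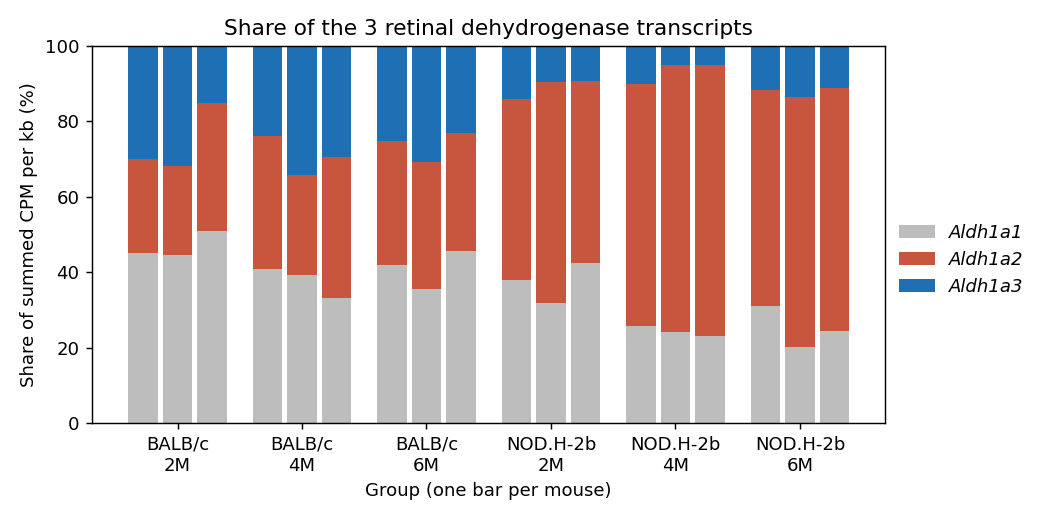
Share of Aldh1a1, Aldh1a2 and Aldh1a3 in the summed CPM per kb of the 3 retinal dehydrogenase genes, 1 bar per mouse, in percent. Aldh1a2 takes at most 37.4% in the BALB/c mice and at least 48.1% in the NOD.H-2b mice.

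Crabp2, which hands retinoic acid to its receptors, was barely detected. At 2M there was no count in any BALB/c mouse and 1, 0 and 2 counts in the NOD.H-2b mice, at or under the floor of 3 counts. At 4M the counts were 1, 5 and 14 in BALB/c and 2, 4 and 3 in NOD.H-2b, and at 6M 8, 5 and 1 against 1, 1 and 1. The ratio of summed counts was 0.423 (95% exact interval 0.170 to 0.972) at 4M and 0.209 (0.0385 to 0.748) at 6M. BALB/c 4M replicate 3 held 14 of the 20 counts of its group, and the mice of the strains overlapped at 4M. At 6M the NOD.H-2b mice had 1 count each, as did a BALB/c mouse. With no filter on low counts, edgeR gave an FDR of 0.397 at 4M and 0.154 at 6M.

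The second question was how the genes moved with age in each strain. In BALB/c from 2M to 4M, 2 of 6 tested members were called, against 11.1% of all 16639 genes tested. Aldh1a1 fell by 0.55 on the log2 scale (SE 0.13, edgeR FDR = 0.0157) and Dhrs3 rose by 0.17 (SE 0.05, FDR = 0.0376). The Aldh1a1 call was lost without BALB/c 2M replicate 1 (edgeR FDR = 0.0621), and the Dhrs3 call without any 1 of 5 of the 6 mice (FDR 0.0793 to 0.144), all but BALB/c 4M replicate 2. From 4M to 6M, edgeR called 0 of 6 members, against 0.307% of all genes, while Aldh1a1 and Rdh10 had an unadjusted p under 0.05 and DESeq2 also called 0. From 2M to 6M, edgeR called 0 of 6, against 5.61% of all genes. Lrat alone had an unadjusted p under 0.05 there, with a log2 fold change of 0.67 (SE 0.18, edgeR FDR = 0.0532), and it was the 1 member that DESeq2 called (FDR = 0.0331).

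In the disease strain, from 2M to 4M, Aldh1a2 was the 1 member called of 7 tested, against 15.8% of all genes. It rose by 0.94 on the log2 scale (SE 0.19, edgeR FDR = 0.0159), from 2.49 ± 0.30 to 4.74 ± 0.94 CPM (SD, n = 3), and the call was lost without NOD.H-2b 2M replicate 1 (FDR = 0.0527) or 3 (FDR = 0.0736). Stra6 had a log2 fold change of 1.11 (SE 0.42, FDR = 0.107). From 4M to 6M, edgeR called 0 of 7 members, against 0.00555% of all genes. Aldh1a3 and Rdh10 had an unadjusted p under 0.05 there, and DESeq2 also called 0. From 2M to 6M, 3 of 7 members were called, against 40% of all genes. Stra6 rose by 1.27 (SE 0.39, edgeR FDR = 0.0291) and Aldh1a2 by 0.52 (SE 0.17, FDR = 0.0337), while Dhrs3 fell by 0.44 on the log2 scale (SE 0.10, FDR = 0.00942).

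The rises from 2M to 6M depended on single mice. The Aldh1a2 call was lost without NOD.H-2b 2M replicate 1 or 3 or NOD.H-2b 6M replicate 2 or 3 (edgeR FDR 0.0784 to 0.101). The Stra6 call was lost without any 1 of 5 mice, all but NOD.H-2b 2M replicate 1 (FDR 0.054 to 0.0842), and without NOD.H-2b 2M replicate 2 its log2 fold change was 0.94. The Dhrs3 call was kept whichever mouse was left out.

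Whether the strain difference itself changed from 2M to 6M was tested in 1 edgeR fit of all 18 mice. Of 7 members tested, Dhrs3 was the 1 called, against 16.1% of all 19117 genes tested. Its strain difference moved by -0.51 on the log2 scale (SE 0.12, edgeR FDR = 0.00866). For Stra6 this change was 1.00 (SE 0.84, FDR = 0.449), for Lrat -0.51 (SE 0.35, FDR = 0.343) and for Aldh1a2 0.28 (SE 0.30, FDR = 0.561). These values did not pass the test, which does not show that the strain differences stayed the same.

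The directions differed among members, and so did the markers of other cells in the same mice. Macrophage markers (5 of 5 genes found) summed to 26.1 to 65.1 CPM in the BALB/c mice and 98.8 to 180.5 in the NOD.H-2b mice. Dendritic cell markers (5 of 5) summed to 3.05 to 11.3 CPM in BALB/c and 13.5 to 50.5 in NOD.H-2b, and T cell markers (4 of 4) to 0.158 to 2.62 and 3.83 to 52.6 CPM. Of the 5 dendritic cell genes, 4 were called higher and 1 was not called at each age. The mean of Cd209a at 4M was 2.86 CPM in BALB/c against 2.40 in NOD.H-2b. Endothelial markers (4 of 4) overlapped at 2M, and were 32.3 to 37.1 CPM in BALB/c against 44.9 to 61.4 in NOD.H-2b at 4M and 26.1 to 30.2 against 52.3 to 67.5 at 6M. The genes of this list did not move together, with 1 called higher and 1 lower at 2M, 1 higher at 4M and 2 higher at 6M. At 4M the mean of Pecam1 was 9.42 against 28.8 CPM and that of Cdh5 5.69 against 7.19. Kdr had 13.6 against 11.4 CPM and Tek 5.63 against 4.13. Acinar markers (4 of 5) were 75590 to 79950 CPM in BALB/c against 65720 to 69560 in NOD.H-2b at 2M, overlapped at 4M and were 73520 to 86250 against 46950 to 58820 CPM at 6M. These sums were mostly Scgb2b7. Of the 4 acinar genes, 2 were called lower at 2M, 1 at 4M and 3 at 6M, and none higher. General epithelial markers (5 of 5) moved as Dhrs3 did. They summed to 673.5 to 677.1 CPM in BALB/c against 784.5 to 907.5 in NOD.H-2b at 2M, with 4 of 5 called higher, and to 655.7 to 744.5 against 498.1 to 605.5 CPM at 6M, with 3 of 5 called lower. At 4M 2 of 5 epithelial markers were called lower, while Dhrs3 was not called. In the test of the change from 2M to 6M all 5 epithelial markers were called downward, with a median of -0.80 on the log2 scale. Over all genes, 16.1% were called in either direction in that test. At 2M, 3 of 4 duct and 5 of 6 fibroblast markers were called higher. At 4M 0 of each list were called higher and 1 of each lower. At 6M 1 of each was called higher, and 1 duct marker lower. Of 5 myoepithelial markers 2, 3 and 2 were called lower at the 3 ages. The marker counts in this paragraph stand beside the shares of all genes, 22.5%, 23.4% and 28.6% called higher at the 3 ages. The shares called lower were 17.2%, 19.2% and 25.8%. Among the BALB/c mice, BALB/c 4M replicate 3 had the highest macrophage, dendritic cell, T cell and B cell sums, and also the highest Aldh1a2 level. Adipocyte markers (5 of 5) were 0.339 to 3.15 CPM over all mice, with no order by strain. Of the 3 mesothelial markers, Wt1 was at 0 in all mice and Upk3b in all but a BALB/c mouse with 1 count, while Msln ranged from 16.1 to 25.9 CPM in the NOD.H-2b mice of 6M. The part of these cells in the strain differences of the retinoid genes was not tested.

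The rest of the pathway was taken from a list of 44 further genes for retinoid carriers, ester turnover, oxidation, binding, breakdown, receptors and targets. At 2M 31 of them could be tested, of which 8 were called higher and 2 lower in the disease strain. At 4M 10 of 32 were higher and 4 lower, and at 6M 14 of 32 were higher and 3 lower. The median log2 fold change was 0.13, 0.10 and 0.29 at the 3 ages. These counts stand beside the shares of all genes given above, 22.5%, 23.4% and 28.6% higher and 17.2%, 19.2% and 25.8% lower. They include Stra6l, Cyp26b1 and, at 4M and 6M, Rdh12, which had enough counts for the test only because of the NOD.H-2b mice. Each of these genes could enter the counts and the median only where it was high in that strain.

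Among carriers and uptake genes (6), Stra6l, a second receptor for the retinol carrier that is known from liver and gut, had the largest log2 fold changes. Like Stra6, it had enough counts for the test only because of the NOD.H-2b mice. It had 0 to 11 counts in the BALB/c mice and 16 to 117 in the NOD.H-2b mice, with log2 fold changes of 4.16, 3.82 and 3.86 at 2M, 4M and 6M (edgeR FDR 0.0007, 0.00041 and 6.96e-05). Ttr, the plasma protein that holds retinol-binding protein in the circulation, was lower, with log2 fold changes of -1.42, -1.52 and -1.75 (edgeR FDR = 0.00113, 0.012 and 0.00162).

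Of the 15 other retinol and retinal oxidoreductases, 4 of 10 tested at 2M, 4 of 11 at 4M and 5 of 11 at 6M were called higher and none lower, against 22.5%, 23.4% and 28.6% higher over all genes. The gene added at 4M and 6M was Rdh12, which passed the filter only through the NOD.H-2b mice (9 to 37 counts at 4M and 26 to 87 at 6M, against 0 to 9 and 0 to 5 in BALB/c) and is named after its values were seen. Rdh16, a retinol-oxidizing enzyme, had a mean level at 2M of 7.33 ± 2.39 CPM in the BALB/c mice against 44.8 ± 2.0 CPM in the NOD.H-2b mice (SD, n = 3). Its log2 fold changes were 2.63, 2.45 and 1.87 at the 3 ages (edgeR FDR = 0.000438, 0.00254 and 1.08e-05). Rdh16 shares exons with a pseudogene, Rdh18-ps, and has close paralogs, so its counts are uncertain. Rdh11, which reduces retinal, was higher by 1.75, 1.92 and 2.41 on the log2 scale, and Retsat, the retinol saturase, by 1.05, 0.88 and 0.67 (edgeR FDR at most 0.00125 in each case). Retsat shares exons with Gm45053 on the other strand, and the strand setting of the counting is not given in the sources used here.

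Fabp5, which can carry retinoic acid to another nuclear receptor than Crabp2 does, was 6.55-fold, 6.08-fold and 9.63-fold higher in NOD.H-2b at the 3 ages (edgeR FDR = 1.68e-08, 2.59e-05 and 1.5e-07). Its level was 1.14 to 2.51 CPM in the BALB/c mice and 9.69 to 12.7 CPM in the NOD.H-2b mice. Crabp1, the other listed binding protein, which the naming rule does not cover, was not called at any age. Of the receptors, Rxra, the common partner of the retinoic acid receptors, was lower at each age, with log2 fold changes of -0.43, -0.69 and -0.91 (edgeR FDR = 6.67e-05, 4.03e-05 and 9.83e-06). The receptors did not share a direction. Of 6 listed, 5 were tested at each age, with 0, 1 and 2 called higher and 1, 2 and 1 lower. Over all genes, 22.5%, 23.4% and 28.6% were called higher and 17.2%, 19.2% and 25.8% lower.

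Of 7 listed genes known to respond to retinoic acid, 4 could be tested at each age. At 2M 1 was called higher, at 4M 3 and at 6M all 4 tested, and none was called lower, against 22.5%, 23.4% and 28.6% higher over all genes at the 3 ages. Cyp26b1, 1 of the 4, had enough counts for the test only because of the NOD.H-2b mice, so it could enter this count only where it was high in them. The median log2 fold change was 0.72, 1.13 and 1.5. In the test of whether the strain difference changed from 2M to 6M, 5 genes of this list were tested and 0 called. Over all genes 16.1% were called there. This does not show that the strain differences of the list stayed the same. The list was chosen with earlier results of these data known. It was drawn from genes beyond the 9 members, so it does not show how any member responds to retinoic acid. Of the members, 2 were called higher at each age and 4, 3 and 5 lower, as given above with the shares of all genes. Tgm2, the tissue transglutaminase, was higher at each age, by 1.16, 1.31 and 1.68 on the log2 scale (edgeR FDR = 8.49e-06, 0.000142 and 9.47e-06), although its exons overlap those of Rprd1b on the other strand. The others at 6M were Rarb, Cyp26b1 and Rarres2, which are named after their values were seen. Cyp26b1, which breaks retinoic acid down, had 2 to 16 counts in the BALB/c mice and 11 to 73 in the NOD.H-2b mice, and log2 fold changes of 1.35 (SE 0.53, edgeR FDR = 0.0648), 1.61 (SE 0.55, FDR = 0.039) and 1.70 (SE 0.45, FDR = 0.0095). Rarb and Rarres2 also share exons with genes on the other strand. Immune markers moved with the strain in the same mice, as given above, and their part in the level of these genes was not tested.

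**Figure D4:**
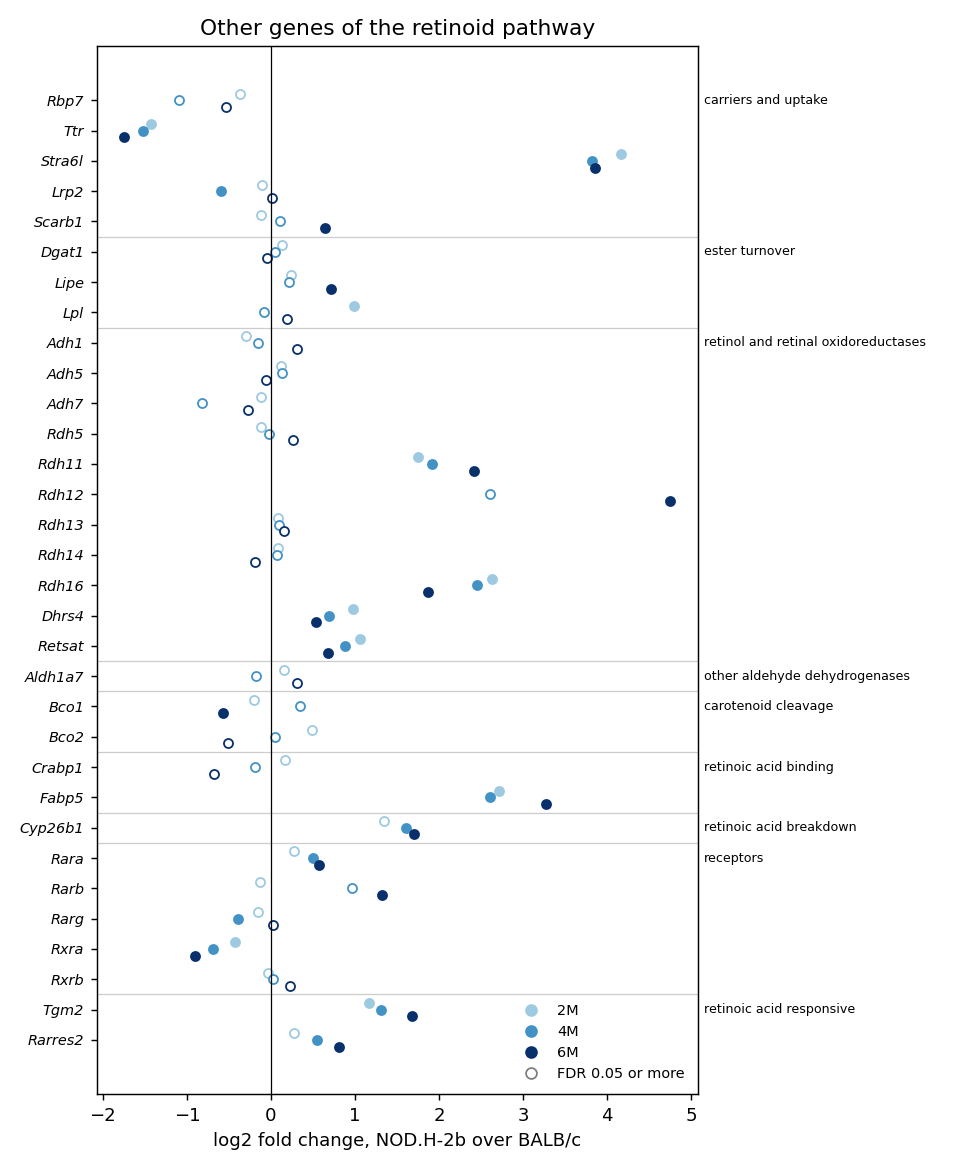
Strain difference (log2 fold change of NOD.H-2b over BALB/c) of the pathway genes beyond the 9 members that could be tested at 1 or more ages, grouped by role. Filled points have an edgeR FDR under 0.05. Stra6l, Rdh11, Rdh16, Fabp5 and Tgm2 lie to the right of 0 at all 3 ages, and Ttr and Rxra to the left.

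As a description of which genes behaved most like each member, log2 CPM was correlated over the 18 mice with that of the 11442 or 11443 other genes of average log2 CPM of at least 1. The correlations span both strains and all ages, so genes with a similar strain difference can rank first. The closest to Stra6 were 1810013A23Rik (r = 0.967) and Cd93 (r = 0.956), and the closest to Aldh1a2 were Sh3bp2 (r = 0.932) and Leprotl1 (r = 0.929). Lrat was closest to Eml1 (r = 0.954) and Naprt (r = 0.953), Rdh10 to 2900005J15Rik (r = 0.946) and Znf512b (r = 0.943), and Aldh1a3 to Tns1 (r = 0.920) and Abi3bp (r = 0.916). Dhrs3 was closest to Pogk (r = 0.932) and Pstpip2 (r = 0.920), and Aldh1a1, with the lowest values, to Gfm1 (r = 0.865) and Fbxo22 (r = 0.855). The same 18 mice stand behind every one of these values.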

How the data were processed

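RNA of 18 LGs was sequenced, and the authors deposited whole-number counts per gene, which the submitters' processing notes tie to cutadapt, FastQC, STAR, HTSeq and GRCm38. Their annotation release, strand setting and handling of reads that match several genes are not given in the sources used here. A second deposited table of log2 normalized values was not used.

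The counts were analysed in R 4.3.3 with edgeR 4.0.16 (TMM normalization, filterByExpr with a minimum count of 10, robust quasi-likelihood fits, Benjamini-Hochberg adjustment over all genes tested) and limma 3.58.1. Each strain or age comparison used its own 6 mice, and the change of the strain difference with age used all 18. Groups came from the labels, and depth ranged from 49480781 to 103936830 counts. Intervals on ratios of summed counts are exact at 95%. Alternatives were other size factors, upper quartile scaling, other low count filters, DESeq2 1.42.0, a replicate block, 1 fit of all mice and leaving out each mouse. Replicate numbers were treated as unpaired. Scripts were tested on simulated data. Figures were drawn with matplotlib 3.10.9 in Python 3.11.15. Of the 54232 genes, 54079 were found in the GENCODE M21 models.

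The members and the pathway and marker lists were chosen with earlier results of these data known, and an item of the pathway list is not reported here. The text names all 9 members, up to 3 genes per pathway list with the largest mean strain difference among those called in 1 direction at all 3 ages, and the 2 genes most like each tested member, and it says so where a gene falls outside this rule.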

Additional observations from a re-analysis of the deposited data

Results flagged for a closer look

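For 1 of 7 members and 3 of 34 further pathway genes tested, against 16.1% of all genes, the strain difference at 6M differed from that at 2M, by the edgeR quasi-likelihood test of the change itself over all 18 mice. Among the 9 members this was Dhrs3, which reduces retinal to retinol, whose log2 strain difference moved by -0.51 (SE 0.12, FDR = 0.00866), from higher to lower in NOD.H-2b. Rxra, the shared partner of nuclear receptors, moved by -0.47 (SE 0.09, FDR = 0.00375), from lower to lower still. Dhrs4, a retinal reductase, moved by -0.43 (SE 0.11, FDR = 0.016), and was called higher in NOD.H-2b at both ages. Scarb1, a receptor for lipoproteins that also takes up carotenoids, moved by 0.77 (SE 0.25, FDR = 0.0438), and was called higher in the disease strain at 6M but not at 2M. Scarb1 and Dhrs4 are named here for this test and not by the naming rule.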

How the results depend on the processing

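Of 25 calls of members, 15 were kept in every alternative, and of the 18 calls between strains 13 were kept. Over 354 alternative values of 27 member fold changes, 25 of them called, 309 kept both direction and side of the threshold, 43 lost the call and 2 reversed. Fold changes of other members were not among these, and Stra6 at 2M gained a call with no filter. Both reversals were of Aldh1a1 between strains at 4M, which was not called (0.05 on the log2 scale): over the alternatives that left out 1 mouse it ran from -0.0448 to 0.128, and it was below 0 without BALB/c 4M replicate 2 (-0.0448) and without NOD.H-2b 4M replicate 2 (-0.0374). In BALB/c from 2M to 4M, 2 members were called, but 4 with no filter on low counts, 1 by DESeq2, 1 with the replicate block, 1 in a fit of all 18 mice and 0 to 2 without 1 mouse. From 2M to 6M in BALB/c none was called, but 2 with no filter (Lrat and Crabp2) and 1 by DESeq2. In the disease strain, from 2M to 4M, 1 was called, 0 with the replicate block and 0 to 1 without 1 mouse, and from 2M to 6M 3 were called, 1 with the replicate block and 1 to 2 without 1 mouse. The causes were not tested.

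Replicate numbers did not pair the mice: correlations of deviations within a number ran from -0.299 to 0.298, no comparison of 9 had all its pairs over 0.1, and 10 of 27 were highest with their own number. The block moved the count of all genes called in NOD.H-2b from 2799 to 308 between 2M and 4M, from 7211 to 4561 between 2M and 6M and from 1 to 594 between 4M and 6M. For that last comparison DESeq2 called 164 genes, no filter gave 75 and the fit of 18 mice 747, and between 2M and 4M that fit gave 4348. In BALB/c from 4M to 6M, 51 genes were called, 428 by DESeq2, 847 with no filter and 124 in the fit of 18 mice. From 2M to 4M, 1849 were called, 2934 with no filter and 900 in the fit of 18 mice, and from 2M to 6M 930 and, with no filter, 1925. Depth limited Rbp4, Crabp2 and, at 2M, Stra6.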
